A study of Arabidopsis thaliana with 12 samples.

Results

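The 6 genes described here are FAMT (AT3G44860), its tandem neighbour AT3G44870, JMT (AT1G19640), BSMT1 (AT3G11480), IAMT1 (AT5G55250) and GAMT1 (AT4G26420), which belong to the SABATH family of plant methyltransferases. They were taken by locus from the 34262 features of the count files. They had been selected on their levels in these same libraries, FAMT for its level after Zeocin in pot1b. Their values are therefore given as a description, and nothing is read from a test of them. Whole seedlings of Arabidopsis thaliana, 6 days old, were compared in 4 groups of 3 libraries: wild type Col-0 (WT) and pot1b, each after 6 h with 20 µM Zeocin or a mock treatment. Zeocin, a drug of the bleomycin class, breaks DNA strands. POT1b is one of the POT1-like proteins of Arabidopsis, a protein family known for its work at telomeres. The labels name neither the pot1b allele nor its background, and do not say whether replicates came from separate cultures, so a p-value here weighs a difference against the spread between libraries only, and that spread may be technical. Where 4 values stand in a row, they are for mock and then Zeocin, first in WT and next in pot1b.

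SABATH enzymes move a methyl group from S-adenosylmethionine onto the carboxyl group of a small acid, or onto a ring nitrogen in a few members. In Arabidopsis, JMT methylates jasmonic acid, BSMT1 salicylic and benzoic acid, IAMT1 the auxin indole-3-acetic acid, GAMT1 gibberellins, and FAMT farnesoic acid. The methyl esters are often more volatile or less active than the free acids, and esterases of the MES family can release the acid again.

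FAMT and AT3G44870 lie head to tail on the forward strand of chromosome 3, at chr3:16379571-16381434 and chr3:16382219-16383605 in RefSeq's TAIR10.1 annotation, with 784 bases between them. Each has 3 exons. Their predicted proteins, of 348 and 379 residues, were 92.5% identical, and their coding sequences 91.9% identical, each as a share of the shorter sequence, that of FAMT. FAMT was 28.2% identical to IAMT1 and 33.3% to GAMT1. The longest run shared by the pair's coding sequences was 70 bases, from coding base 322 of FAMT and 313 of AT3G44870, and is shown because a read that falls wholly inside it could come from either gene:
FAMT and AT3G44870: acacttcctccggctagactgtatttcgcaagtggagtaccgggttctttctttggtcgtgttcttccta
The 90 coding bases that follow hold 12 differences, in capitals, by which reads of the pair can be told apart. They are coding bases 392 to 481 of FAMT and 383 to 472 of AT3G44870:
FAMT: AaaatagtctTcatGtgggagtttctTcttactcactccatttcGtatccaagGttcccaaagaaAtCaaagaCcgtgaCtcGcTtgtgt
AT3G44870: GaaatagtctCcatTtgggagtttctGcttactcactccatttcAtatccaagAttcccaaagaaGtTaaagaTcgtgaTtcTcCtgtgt

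The 250 bases before the annotated start of FAMT, its tandem neighbour and IAMT1 are shown because FAMT and AT3G44870 share most of their coding sequence but had very different counts, and because IAMT1 was the other measurable member. They are, on TAIR10.1, chr3:16379321-16379570 (forward strand), chr3:16381969-16382218 (forward strand) and chr5:22410975-22411224 (reverse strand), each printed 5′ to 3′ on its gene's strand. Capitals mark every match, on either strand, to a G-box (CACGTG), a T/G-box (AACGTG), a W-box core (TTGAC), the motif of the DNA damage factor SOG1 (CTTNNNNNNNAAG), an as-1 core (TGACG), an auxin response element (TGTCTC) or a GCC-box (GCCGCC):
FAMT upstream: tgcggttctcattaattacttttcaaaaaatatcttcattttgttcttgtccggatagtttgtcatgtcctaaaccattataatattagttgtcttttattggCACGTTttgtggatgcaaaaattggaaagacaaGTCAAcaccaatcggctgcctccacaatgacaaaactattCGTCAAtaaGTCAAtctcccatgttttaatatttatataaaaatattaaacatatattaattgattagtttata
AT3G44870 upstream: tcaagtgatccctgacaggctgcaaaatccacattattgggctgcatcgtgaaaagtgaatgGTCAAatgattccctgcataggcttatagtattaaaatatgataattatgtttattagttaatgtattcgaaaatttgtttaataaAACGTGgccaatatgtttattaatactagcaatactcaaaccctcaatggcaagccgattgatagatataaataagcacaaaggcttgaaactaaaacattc
IAMT1 upstream: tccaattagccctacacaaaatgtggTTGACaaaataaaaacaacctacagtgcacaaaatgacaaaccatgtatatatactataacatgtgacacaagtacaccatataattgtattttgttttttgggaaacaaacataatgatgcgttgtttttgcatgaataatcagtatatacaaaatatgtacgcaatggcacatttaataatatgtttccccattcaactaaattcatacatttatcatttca
The FAMT window held a T/G-box starting 147 bases before the gene, W-box cores at 114, 73 and 65, and an as-1 core at 74 that overlaps the W-box core at 73. AT3G44870 held a T/G-box at 102 and a W-box core at 188, and IAMT1 a W-box core at 224. Of 27443 windows of the same length before annotated genes, 7.5% held a T/G-box, 44.9% a W-box core and 18.6% an as-1 core. The motifs with no match in the 3 windows were the G-box (in 6.5% of all windows), the SOG1 motif (9.7%), the auxin response element (10.9%) and the GCC-box (1.9%). A match is a match of letters and was not tested as a binding site.

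The libraries held 9607269 to 24587168 counts. Chloroplast genes took 53.01% to 58.45% of them and nuclear genes had 4072216 to 10775864 counts. CPM are counts scaled to a common library size, with TMM factors unless stated. A gene with 3 counts in a library stood at 0.122 to 0.312 CPM before TMM scaling. That floor covers counting error only. BRCA1, a repair gene that answers DNA breaks, stood at 0.781 to 1.35 CPM in the mock libraries and 81.3 to 102 CPM after Zeocin. POT1B itself stood at 2.95 to 5.35 CPM in WT, at 0.7 to 1.66 CPM in the pot1b libraries numbered 1 and 2, and at 2.82 (mock) and 4.21 CPM (Zeocin) in those numbered 3, inside or near the WT range. POT1B overlaps NHL3 on the opposite strand and the strand setting of the counting was not given in the sources used here, so its counts cannot settle the genotype. Below, pot1b means the libraries labelled so, and results are also given without both libraries labelled pot1b and numbered 3. Summed leaf markers (RBCS1A, CAB3, LHCB2.2, RCA) stood at 3860 to 4590 CPM in WT and 4670 to 5870 in pot1b. Summed root markers (PYK10, COBL9, EXPA7, SCR, PHT1;1) stood at 385 to 427 CPM in WT and 648 to 736 in pot1b. Most of the root sum was PYK10, at 389, 366, 674 and 650 CPM in the 4 groups. SCR stood lower in pot1b, at 5.24, 5.36, 4.54 and 3.34 CPM. COBL9, at 0.665, 0.631, 0.904 and 0.478 CPM, was higher in pot1b under mock and lower under Zeocin. The remaining root markers had higher means in pot1b. Shoot meristem markers (STM, WUS, CLV3) summed to at most 1.37 CPM, with 1 count of WUS in all, and seed storage markers (CRA1, CRU3, SESA1, OLEO1) to at most 1.23 CPM.

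Of the 6 genes, FAMT and IAMT1 had enough counts for the model fitted across genes, and the other 4 were at or near the floor. FAMT was highest in Zeocin-treated pot1b seedlings and was low in the 3 other groups. The group means of IAMT1 were lower in pot1b than in WT under both treatments. FAMT and IAMT1 stood above the filter's cutoff of 0.683 CPM (before TMM scaling) in all 12 libraries, and the other 4 genes in 0 of 12.

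FAMT makes methyl farnesoate from farnesoic acid, an acid of the farnesyl route. In WT mock it had 94, 43 and 74 counts, or 3.72, 4.53 and 3.52 CPM (3.92 ± 0.534 CPM, SD, n = 3). In WT Zeocin it had 28, 61 and 62 counts, or 1.92, 3.43 and 3.32 CPM (2.89 ± 0.843, n = 3). The WT groups lay close together, with the Zeocin libraries below the mock ones, the first of them, at 1.92 CPM, by the most. In pot1b mock it had 79, 57 and 77 counts, or 3.89, 4.45 and 5.57 CPM (4.64 ± 0.852, n = 3). In pot1b Zeocin it had 211, 172 and 230 counts, or 14.6, 15.1 and 17.3 CPM (15.7 ± 1.43, n = 3). Every pot1b Zeocin library stood above each of the 9 others, the highest of which was 5.57 CPM. The groups thus ran, from high to low, pot1b Zeocin, pot1b mock, WT mock, WT Zeocin, and the mock groups of both genotypes overlapped.

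**Figure D1:**
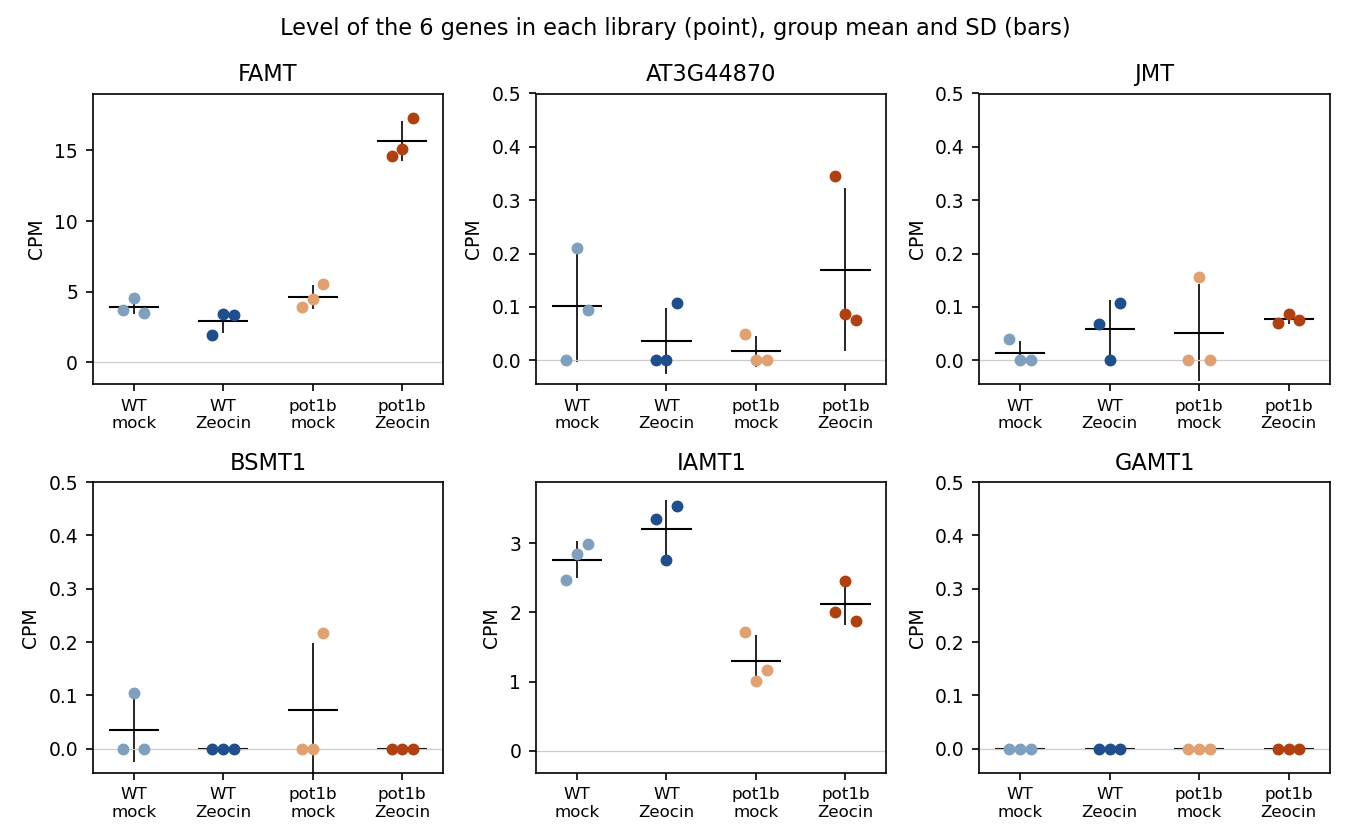
Levels (CPM, linear axis, a different scale in each panel) of the 6 genes in every library; points are libraries, horizontal bars group means and vertical bars 1 SD (n = 3). FAMT stands at 14.6 to 17.3 CPM in pot1b Zeocin against at most 5.57 elsewhere, IAMT1 is lower in the pot1b groups, and the other 4 genes stay at or below 0.346 CPM.

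The log2 change of FAMT with Zeocin was −0.39 (SE 0.19) in WT and 1.77 (SE 0.17) in pot1b, the latter 3.41-fold. With 1 library left out in turn, the WT value ran from −0.52 to −0.18. The log2 difference between pot1b and WT was 0.26 (SE 0.18) under mock and 2.41 (SE 0.17) under Zeocin, the latter 5.33-fold. The interaction, which is the Zeocin change in pot1b minus that in WT, was 2.16 (SE 0.25) on the log2 scale. Among the 19596 tested genes, counted from the highest log2 value, FAMT was number 133 for Zeocin in pot1b, number 7 for pot1b against WT under Zeocin and number 6 for the interaction. Without both libraries labelled pot1b and numbered 3, the last 3 log2 values were 1.83, 2.33 and 2.21. In whole seedlings, a change in RNA per cell and a change in the number of cells that express the gene cannot be told apart.

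IAMT1 lies at chr5:22407427-22410974 on the reverse strand (TAIR10.1) and has 4 exons. In WT mock it had 62, 27 and 63 counts, or 2.46, 2.84 and 2.99 CPM (2.76 ± 0.277, n = 3). In WT Zeocin it had 49, 49 and 66 counts, or 3.35, 2.75 and 3.53 CPM (3.21 ± 0.407, n = 3). These WT groups overlapped. In pot1b mock it had 35, 13 and 16 counts, or 1.72, 1.01 and 1.16 CPM (1.3 ± 0.375, n = 3). In pot1b Zeocin it had 29, 28 and 25 counts, or 2.01, 2.45 and 1.88 CPM (2.11 ± 0.3, n = 3). All 6 pot1b libraries stood below all 6 WT libraries, by a margin as small as 2.45 against 2.46 CPM, and the 2 pot1b groups did not overlap. The order was thus WT Zeocin, WT mock, pot1b Zeocin, pot1b mock.

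For IAMT1 the log2 difference between pot1b and WT was −1.02 (SE 0.22) under mock, 2.03-fold lower, and −0.61 (SE 0.21) under Zeocin. Its log2 change with Zeocin was 0.23 (SE 0.19) in WT and 0.64 (SE 0.24) in pot1b, with an interaction of 0.41 (SE 0.31). Under mock it was number 94 of the 19596 genes counted from the lowest log2 difference. Without both libraries labelled pot1b and numbered 3, the genotype differences were −0.93 under mock and −0.54 under Zeocin.

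The other 4 members gave too few counts for a fold. In WT, AT3G44870 had 0, 2 and 2 counts under mock and 0, 0 and 2 under Zeocin. In pot1b it had 1, 0 and 0 counts under mock and 5, 1 and 1 under Zeocin. It thus held 14 of the 1202 counts of the tandem pair, 1.16% (exact 95% interval 0.638% to 1.95%, counting error only). In pot1b Zeocin its share was 7 of 620, 1.13% (0.455% to 2.31%), and in WT mock 4 of 215, 1.86% (0.509% to 4.69%), so a difference in share was not detectable at this depth. AT3G44870 also overlaps the next gene, ACD1, on the same strand.

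JMT, the jasmonate methyltransferase, had 1, 3, 2 and 3 counts in the 4 groups. BSMT1, the salicylate and benzoate methyltransferase, had 1, 0, 3 and 0 counts in the same order, and overlaps AT3G11490 on the opposite strand. GAMT1, the gibberellin methyltransferase, had 0 counts in all 12 libraries, which allows up to 0.122 to 0.312 CPM per library (before TMM scaling). No group difference of JMT, BSMT1 or GAMT1 was detectable at this depth.

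A gene was called at a Benjamini-Hochberg adjusted p under 0.05 in edgeR's quasi-likelihood test. Of the 2 tested members, 0 were called for Zeocin in WT, where 5.99% of all tested genes were called (3.34% higher, 2.65% lower). FAMT was called higher for Zeocin in pot1b (6.7% of all genes; 3.7% higher, 3% lower). IAMT1 was called lower in pot1b under mock (13.1%; 7.25% higher, 5.83% lower). FAMT was called higher in pot1b under Zeocin (11.1%; 6.55% higher, 4.51% lower) and in the interaction (0.75%; 0.378% higher, 0.373% lower). IAMT1 was not called for Zeocin in pot1b, for pot1b against WT under Zeocin or in the interaction. These contrasts chose the members, so nothing is read from the members' calls. The same shares of all genes are the background for the counts of calls in the lists below.

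The genes beside FAMT had other patterns of level. AT3G44840, a SABATH gene upstream that is 77.9% identical to FAMT in protein, had 3 counts in all. AT3G44850, a kinase gene between them, stood at 3.2 ± 0.365, 4.24 ± 0.609, 3.66 ± 0.558 and 4.49 ± 0.718 CPM in the 4 groups (SD, n = 3) and was called in none of the 5 contrasts. ACD1, a chlorophyll breakdown enzyme gene downstream of the pair, fell with Zeocin in pot1b from 24.9 ± 0.0814 to 19.0 ± 1.84 CPM (SD, n = 3; log2 change −0.39, edgeR adjusted p = 0.0047). RPL9, the gene after ACD1, encodes a ribosomal protein and stood at 32.1 to 38.6 CPM in the group means, with 0 calls in the 5 contrasts.

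The 18 further SABATH genes were examined next, of which 5 passed the filter and 13 did not. Those 13 had 1 to 101 counts each over the 12 libraries, and 7 had under 10. Among them, NAMT1, a nicotinate methyltransferase, had 25, 29, 23 and 24 counts in the 4 groups, and GAMT2, the second gibberellin methyltransferase, had 0, 1, 2 and 2. AT1G15125 alone took 72.2% of all counts of the 24 SABATH genes and FAMT 9.2%. Per kilobase of exon, the level of FAMT in pot1b Zeocin was 9.43 ± 0.86 CPM per kb (SD, n = 3), between AT1G15125 at 32.0 ± 1.61 and AT5G37990 at 5.94 ± 0.641. In WT mock the per-length level of FAMT was 2.36 ± 0.322 CPM per kb, below AT5G37990 at 3.19 ± 0.524 and above IAMT1 at 1.72 ± 0.173.

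**Figure D2:**
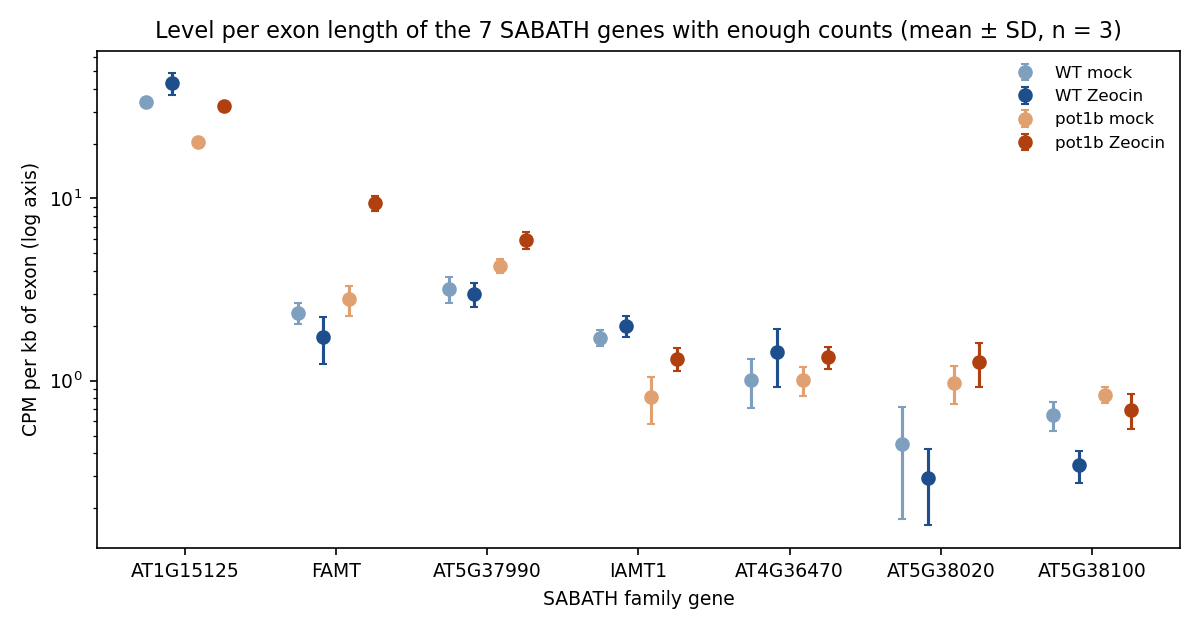
Levels per exon length (CPM per kb, log axis; group mean ± SD, n = 3) of the 7 SABATH genes that passed the filter, in the 4 groups. FAMT moves from below AT5G37990 in WT mock (2.36 against 3.19 CPM per kb) to above it in pot1b Zeocin (9.43 against 5.94), and AT1G15125 is highest in every group.

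AT1G15125, a SABATH gene whose substrate is not given here, was higher after Zeocin in both genotypes and lower in pot1b under both treatments. It stood at 47.0, 53.1 and 51.1 CPM in WT mock and 73.9, 60.2 and 58.2 CPM in WT Zeocin. In pot1b it stood at 30.0, 32.3 and 29.8 CPM in mock and 45.7, 50.4 and 47.5 CPM in Zeocin. None of the 4 pairs of groups compared overlapped. The Zeocin log2 change was 0.35 (SE 0.08, edgeR adjusted p = 0.013) in WT and 0.64 (SE 0.09, edgeR adjusted p = 2.2e-05) in pot1b. The genotype difference was −0.71 (SE 0.09, edgeR adjusted p = 4.7e-06) under mock and −0.42 (SE 0.09, edgeR adjusted p = 0.0022) under Zeocin. The rise in WT was not called without the first WT mock library (edgeR adjusted p = 0.12). The gene overlaps AT1G15120 on the same strand, so reads of the 2 genes may not be separable.

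AT5G38020, whose protein is 78.8% identical to AT3G21950, 53.0% to BSMT1 and 52.4% to NAMT1, was higher in pot1b. Under mock it stood at 0.634, 1.37 and 0.428 CPM in WT and 1.87, 2.11 and 1.3 CPM in pot1b. Under Zeocin it stood at 0.479, 0.787 and 0.321 CPM in WT and 1.8, 2.1 and 3.01 CPM in pot1b. The genotypes overlapped under mock and not under Zeocin. The log2 difference was 2.1 under Zeocin (SE 0.37, edgeR adjusted p = 0.00056) and 1.33 under mock (SE 0.35, edgeR adjusted p = 0.013). The call under mock was lost without either of WT mock libraries 1 and 3 or of pot1b mock libraries 1 and 2, with edgeR adjusted p up to 0.099.

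AT5G37990 had 46.3% protein identity to FAMT and 87.6% to AT5G37970. It stood at 3.83, 3.04 and 2.94 CPM in WT Zeocin and 7.27, 6.13 and 6.01 CPM in pot1b Zeocin. Under Zeocin it was 2.0-fold higher in pot1b (log2 difference 1.0, SE 0.16, edgeR adjusted p = 0.00024). Under mock the levels were 3.33, 4.11 and 2.99 CPM in WT and 4.93, 4.22 and 4.84 CPM in pot1b, without overlap, and the difference was not called (log2 0.47, edgeR adjusted p = 0.063). It lay near the threshold: limma-voom called it (adjusted p = 0.042), as did edgeR without the first WT Zeocin or the second WT mock library (0.033 and 0.044). Zeocin against mock in pot1b was likewise not called (log2 0.47, edgeR adjusted p = 0.078) but was without the first WT Zeocin library (0.035). The last 2 tested SABATH genes, AT4G36470 and AT5G38100, were called in none of the 5 contrasts.

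Counted over these 5 SABATH genes, 1 rose and 0 fell with Zeocin in WT, and 1 rose and 0 fell with Zeocin in pot1b, AT1G15125 in both. In pot1b against WT, 1 was called higher and 1 lower under mock, and 2 higher and 1 lower under Zeocin. Their median log2 differences in these 4 contrasts were −0.06, 0.4, 0.33 and 0.98, beside −0.003, 0.0, 0.005 and 0.011 for all tested genes. In the interaction edgeR and limma-voom called 0 of 5, although 2 had an unadjusted p under 0.05 in edgeR, and DESeq2 called 0 and gave 4 of the 5 no adjusted p. Without the first WT Zeocin library, AT1G15125 was called in the interaction (0.4, edgeR adjusted p = 0.021). Their values ran from 0.01 to 0.77 with a median of 0.53. FAMT stood at 2.16 in the same contrast. Without both libraries labelled pot1b and numbered 3, the counts of calls were 1, 1, 2, 3 and 0 in the 5 contrasts.

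**Figure D3:**
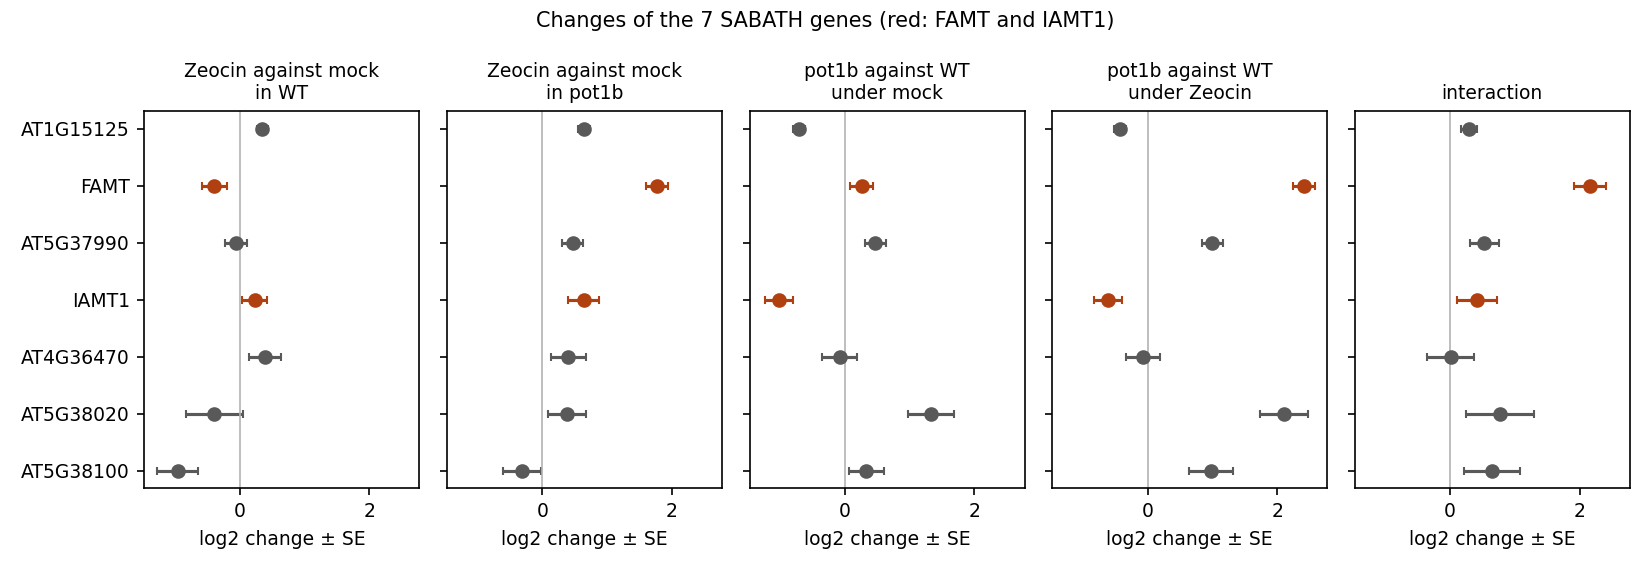
Log2 change ± SE from the fit across all genes for the 7 SABATH genes that passed the filter, in the 5 contrasts; FAMT and IAMT1, which were chosen on these values, are red and the other 5 genes grey. FAMT stands at 2.16 in the interaction and the other 6 genes between 0.01 and 0.77, and IAMT1 at −1.02 and AT1G15125 at −0.71 are the 2 genes furthest below 0 in pot1b against WT under mock.

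The enzymes that supply the methyl group were next. Of the 11 genes of the methyl donor cycle, all tested, 4 were higher and 0 lower in pot1b under each treatment, the same 4 genes: the S-adenosylhomocysteine hydrolase SAHH2, the S-adenosylmethionine synthetases MAT3 and MAT4, and the methionine synthase MS2. SAHH2, which removes the by-product of methyl transfer, stood at 19.8 and 33.3 CPM in WT and pot1b mock (log2 difference 0.76, edgeR adjusted p = 3.3e-06) and 16.1 and 34.4 CPM under Zeocin (1.09, edgeR adjusted p = 4e-08). MAT3 was higher by 0.69 and 0.43, MS2 by 0.5 and 0.43 and MAT4 by 0.33 and 0.56 on the log2 scale, under mock and Zeocin. The list's median log2 difference was 0.14 under mock and 0.11 under Zeocin. With Zeocin, 0 were called in WT, 1 fell in pot1b (MAT3, log2 change −0.41) and 0 were called in the interaction. For these 2 counts of 0, edgeR gave 1 and 3 genes at an unadjusted p under 0.05, and DESeq2 and limma-voom called 0. Without the first WT Zeocin library, 1 was called in WT (SAHH2, −0.31), 3 in pot1b (MAT3, SAHH1 and SAM1) and 1 in the interaction (MAT3, −0.35). MAT4 overlaps genes on the opposite strand.

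Farnesoic acid, the substrate of FAMT, derives from farnesyl diphosphate. The farnesyl route list of 8 genes, all tested, held farnesyl diphosphate synthases FPS1 and FPS2, farnesol kinase FOLK and farnesol dehydrogenase FLDH. It was wider than the supply of farnesoic acid and also held FCLY, ICME, STE14A and STE14B. Of the 8 genes, 0 were called in each of the 5 contrasts by edgeR, DESeq2 and limma-voom. DESeq2 gave 2 of the 8 no adjusted p in the interaction. In edgeR, 2 and 1 were at an unadjusted p under 0.05 for Zeocin in WT and in pot1b, and 0 in the other 3 contrasts. Without the first WT Zeocin library, FPS1 was called for Zeocin in WT (0.31, edgeR adjusted p = 0.01). Their log2 values ran from −0.3 to 0.22 over the 5 contrasts. The median was −0.07 and 0.01 for pot1b against WT under mock and Zeocin.

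Methyl esterases release the free acid. Of 20 MES genes 12 were tested, and 1 fell with Zeocin in WT, MES9 (log2 change −0.65, edgeR adjusted p = 0.021). With Zeocin in pot1b 2 fell, MES16 (−0.93, edgeR adjusted p = 0.0013) and MES14 (−0.34, edgeR adjusted p = 0.013). In pot1b against WT, MES14 was higher under mock by 0.3 (edgeR adjusted p = 0.021) and MES16 lower under Zeocin (−0.75, edgeR adjusted p = 0.0086). Over all tested genes, 5.99%, 6.7%, 13.1% and 11.1% were called in these 4 contrasts, and nothing is read from the MES list as a whole. MES16 stood at 7.33, 6.07, 6.84 and 3.6 CPM in the 4 groups, its lowest group being the one in which FAMT was highest. In the interaction 0 of 12 were called by edgeR and limma-voom, and 1 had an unadjusted p under 0.05 in edgeR. DESeq2 also called 0 there and gave 6 of the 12 no adjusted p. Without both libraries labelled pot1b and numbered 3, MES16 under Zeocin was not called (edgeR adjusted p = 0.056), nor was MES14 in either contrast. MES9 and MES14 also lost their calls under other alternatives, with edgeR adjusted p up to 0.22 and 0.18. MES14 overlaps OHP2 on the opposite strand.

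The hormones that JMT, BSMT1, IAMT1 and GAMT1 act on have their own synthesis genes. Of 23 genes of jasmonate synthesis and response 22 were tested, and in pot1b 13 were higher and 2 lower under mock, and 12 higher and 1 lower under Zeocin, with median log2 differences of 0.52 and 0.62. TAT3, a jasmonate-induced aminotransferase, was higher by 2.16 (SE 0.54, edgeR adjusted p = 0.0088) and 3.08 (SE 0.59, edgeR adjusted p = 0.0012). It had 10, 6, 38 and 41 counts in the 4 groups. Its WT means, 0.145 and 0.109 CPM, were at the floor, so the size of these differences is uncertain. The allene oxide cyclases AOC3 and AOC2, which form the jasmonate ring, were higher by 1.27 and 0.94 under mock and by 1.43 and 1.29 under Zeocin. The lipoxygenase LOX3 was higher by 1.11 under Zeocin, and VSP1, a jasmonate-induced storage protein, by 0.97 under mock. TAT3 under mock lost its call without the third pot1b mock library (edgeR adjusted p up to 0.07), and VSP1 lost it under 6 alternatives (up to 0.18). JMT had at most 3 counts in any of these groups.

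With Zeocin, 2 jasmonate genes rose in WT and 3 rose and 1 fell in pot1b. AOC1 rose in both, by 0.57 (edgeR adjusted p = 0.0006) and 1.12 (edgeR adjusted p = 1.7e-08) on the log2 scale. The other called genes were OPCL1, an acyl-CoA ligase, in WT (0.42, lost under 11 alternatives), and in pot1b AOC2 (0.39), the jasmonate catabolism gene CYP94C1 (0.38) and the conjugating enzyme gene JAR1 (−0.44). CYP94C1 was not called without both libraries labelled pot1b and numbered 3 (edgeR adjusted p = 0.18). In the interaction edgeR, DESeq2 and limma-voom called 0 of 22, of which DESeq2 gave 4 no adjusted p, and 7 had an unadjusted p under 0.05 in edgeR. With 1 library left out, 0 to 3 were called: AOC1, AOC2 and ST2A without the first WT Zeocin library, and AOC1 without the first pot1b Zeocin library. AOC1 was also called with no filter on low counts (0.55, edgeR adjusted p = 0.035).

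Of 9 salicylate genes 6 were tested. PBS3, which conjugates isochorismate in salicylate synthesis, stood at 0.226, 0.419, 2.97 and 0.548 CPM in the 4 groups. PBS3 had 13, 22, 142 and 21 counts in them, and stood within the range of the floor in WT mock. In mock seedlings it was higher in pot1b (log2 difference 3.64, edgeR adjusted p = 6.4e-08) and fell with Zeocin in pot1b by 2.46 (edgeR adjusted p = 4.1e-06), a change that differed from that in WT (interaction −3.33, SE 0.57, edgeR adjusted p = 0.0046). ICS1, the isochorismate synthase, was higher by 1.21 in pot1b under mock (edgeR adjusted p = 8.4e-06) and fell by 0.59 with Zeocin (edgeR adjusted p = 0.017, lost under 5 alternatives, up to 0.15). PBS3 and FAMT thus had their highest group means in different pot1b groups, mock and Zeocin. In all, 1 salicylate gene rose and 1 fell with Zeocin in WT, 0 rose and 4 fell in pot1b, 2 were higher in pot1b under mock, 2 were lower under Zeocin, and 1 was called lower in the interaction. Without both libraries labelled pot1b and numbered 3, 0 were called in pot1b against WT under Zeocin, and ICS1 was called in the interaction as well as PBS3. The others were EDS5, a salicylate pathway transporter (0.64 in WT), the salicylate hydroxylase DMR6 (−0.4 in WT, −0.49 in pot1b, −0.3 in pot1b against WT under Zeocin) and the glucosyltransferase UGT74F2 (−0.34 in pot1b, −0.31 under Zeocin). EDS5 lost its call without the third WT mock or the third WT Zeocin library (edgeR adjusted p up to 0.11). UGT74F2 lost its calls under 4 and 2 alternatives (up to 0.083 and 0.086), and DMR6 in pot1b against WT under 2 (up to 0.12).

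Of 17 auxin and gibberellin synthesis genes 9 were tested, and 0 were called with Zeocin in WT, in pot1b or in the interaction by edgeR, DESeq2 and limma-voom, though DESeq2 gave 7 of the 9 no adjusted p in the interaction. In edgeR, 1, 2 and 1 were at an unadjusted p under 0.05. The gibberellin-inactivating oxidase gene GA2ox2 was higher in pot1b under mock (log2 difference 0.99, edgeR adjusted p = 0.0092), and the auxin synthesis gene YUC8 was lower in pot1b under Zeocin (−0.47, edgeR adjusted p = 0.045). Both calls were lost under some alternatives, 3 and 11 of 19. YUC8 was also lower in pot1b under mock, at 6.83 against 9.07 CPM in WT. That difference was not called in the main fit, but was by limma-voom (−0.42, adjusted p = 0.043) and in other alternatives. IAMT1, which acts on auxin, stood lower in pot1b under both treatments (log2 difference −1.02, SE 0.22, under mock and −0.61, SE 0.21, under Zeocin).

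**Figure D4:**
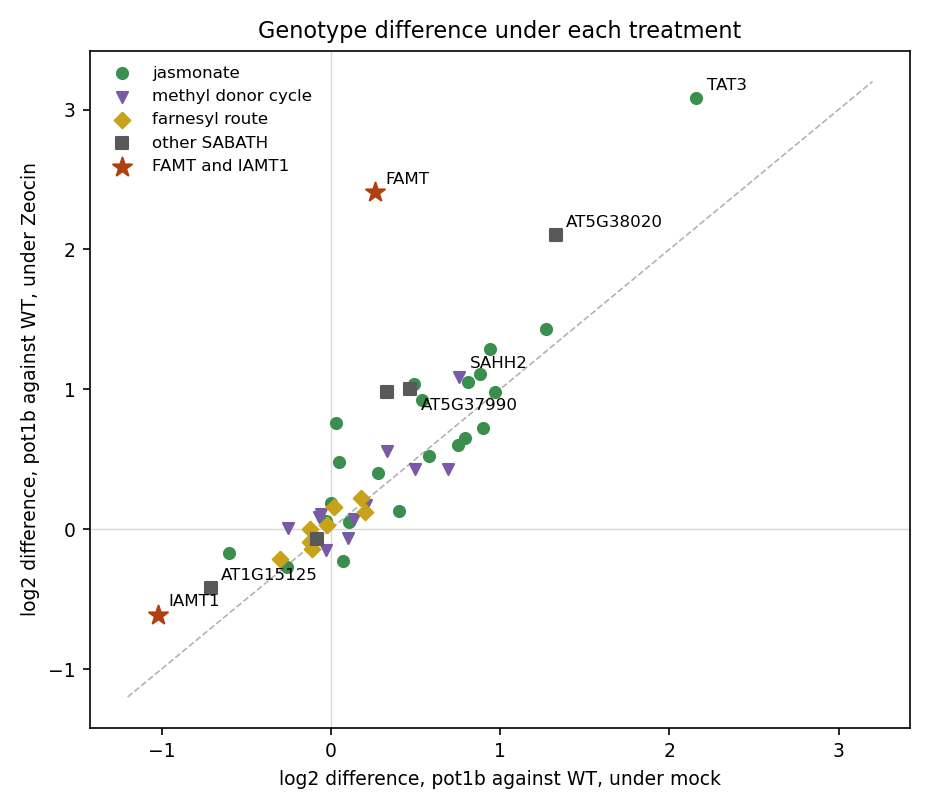
Log2 difference of pot1b against WT under mock (x axis) and under Zeocin (y axis) for the tested jasmonate, methyl donor cycle, farnesyl route and SABATH genes; the dashed line marks equal differences, and the 2 axes share no library. FAMT lies far above the line (0.26 against 2.41), IAMT1 is below 0 on both axes (−1.02 and −0.61), and TAT3 and SAHH2 are above 0 on both.

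Markers of organs moved with genotype as well. Of the 4 leaf markers 3 were higher and 0 lower in pot1b under mock and 1 higher under Zeocin. Of the 5 root markers 2 were higher under mock, and 2 were higher and 1 lower under Zeocin. With Zeocin in pot1b, where FAMT was 3.41-fold higher, 0 of the 5 root markers were called (3 had an unadjusted p under 0.05 in edgeR) and 2 of the 4 leaf markers fell, RBCS1A by 0.35 and RCA by 0.33 on the log2 scale. The part of organ proportions in the levels of FAMT and IAMT1 was not tested.

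The 10 genes whose log2 CPM ran most like that of FAMT over the 12 libraries, among 19594 compared, had Pearson r of 0.917 to 0.958. Closest were AT5G42930, an alpha/beta-hydrolase gene (r = 0.958), FLS2, the flagellin receptor (0.955), NUDT8, a nudix hydrolase (0.955), the lectin gene AT1G60095 (0.947) and FACT, an acyltransferase of the cuticle and suberin route (0.94). They were followed by the late embryogenesis abundant protein gene AT2G23120 (0.938), the TIR domain gene AT1G57630 (0.932), the calcium pump ACA2 (0.93), the suberin oxidase CYP86A1 (0.918) and the aquaporin TIP2;3 (0.917). All 10 had their highest group mean in pot1b Zeocin, as the choice by likeness to FAMT favours. NUDT8 stood at 6.56 ± 0.215, 6.36 ± 0.64, 7.77 ± 0.539 and 13.1 ± 1.16 CPM in the 4 groups (SD, n = 3). FACT stood at 2.65 ± 0.198, 2.3 ± 0.185, 2.73 ± 0.311 and 4.47 ± 0.109 CPM in the same groups. Their differences between pot1b and WT under Zeocin, 1.04 and 0.96 on the log2 scale, were smaller than the 2.41 of FAMT. With a prior count of 0.5 in the logarithm, 9 of the 10 remained, and by Spearman's rank correlation 1 did. The points share library depth and scaling, FLS2 and AT2G23120 overlap other genes, and IAMT1 had r = −0.31 with FAMT.

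**Figure D5:**
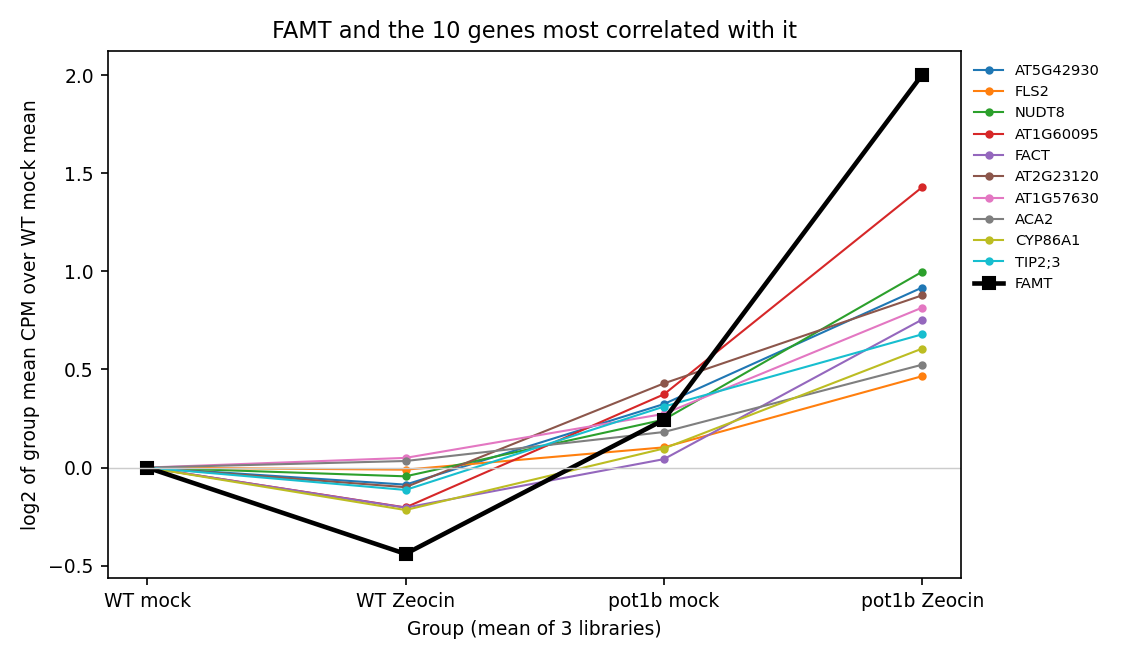
Group mean CPM relative to WT mock (log2) of FAMT (black squares) and of the 10 genes most correlated with it over 12 libraries (coloured points); lines join the 4 groups for each gene and have no meaning as a time course. All rise to their highest mean in pot1b Zeocin, and FAMT shows the widest range, with group means from 2.89 to 15.7 CPM.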

How the data were processed

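RNA-seq of 12 libraries of Arabidopsis seedlings came as 1 table of raw counts per gene for each library. Per the submitters' processing notes, the authors used Trim Galore, HISAT2, featureCounts and limma with the TAIR10 genome; tool versions, and whether counting used strand, were not given in the sources used here. A stranded kit with ribosomal depletion was used, per the labels' protocols. The deposited counts were whole numbers.

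Differences were estimated in edgeR 4.0.16 (R 4.3.3). The filterByExpr filter (minimum count 10) left 19596 features and removed 14666. After TMM scaling, all 12 libraries entered 1 model of the 4 groups, tested by robust quasi-likelihood (common dispersion 0.0121, 8 residual degrees of freedom), with Benjamini-Hochberg adjustment over the tested features of each of 5 contrasts and a threshold of 0.05. Levels are mean CPM ± SD, log2 changes carry their SE, and CPM per kb divides by the exon length. Likeness to FAMT is Pearson's r of log2 CPM with a prior count of 2. The fit was tested on simulated counts.

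The 6 genes, the other SABATH genes and the 6 lists around them were chosen with earlier results of these data known. Named genes were the members, every other SABATH gene called in any contrast, GAMT2 and NAMT1, up to 4 called genes per list and contrast with the largest log2 change, the 10 genes most like FAMT, its neighbours, POT1B and BRCA1.

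Positions, exon lengths, overlaps and sequences came from RefSeq's TAIR10.1 entries, matched by locus (all 24 SABATH genes matched). Protein identities were computed with Biopython 1.88 from global alignments, as a share of the shorter protein. The 19 alternatives were DESeq2 1.42.0, limma-voom (limma 3.58.1), DESeq2's size factors in edgeR, no filter, nuclear genes only, a replicate block, each library left out in turn, and both pot1b libraries numbered 3 left out. Exact intervals are Clopper-Pearson.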

Additional observations from a re-analysis of the deposited data

Results flagged for a closer look

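The effect of Zeocin on FAMT differed between the genotypes: its log2 change in pot1b minus that in WT was 2.16 (SE 0.25). In pot1b the 3 Zeocin libraries stood at 14.6 to 17.3 CPM against 3.89 to 5.57 in mock, and in WT the Zeocin libraries stood at 1.92 to 3.43 CPM against 3.52 to 4.53. The gene had been selected on these values, so no p is given.

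The effect of Zeocin on PBS3, a salicylate synthesis gene, differed in the opposite direction, with an interaction of −3.33 (SE 0.57, edgeR adjusted p = 0.0046). Its mean level was 2.97 CPM in pot1b mock and 0.548 in pot1b Zeocin, against 0.226 and 0.419 in WT. These rest on 142, 21, 13 and 22 counts, and the WT mock level lay within the range of the floor. Over the 18 alternatives that gave an adjusted p, the highest was 0.033. DESeq2 gave none for this contrast. The alternatives left out each library in turn, and no separate search for outlying libraries was made.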

How the results depend on the processing

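The log2 changes of FAMT and IAMT1 kept their direction and moved by less than 1 SD between replicates in all 190 comparisons over 19 alternatives. The SD was that of the most variable group in the contrast. Leaving out 1 of 3 libraries can hardly move a group mean by 1 SD, so those comparisons say little about stability. FAMT ran from 1.64 to 1.92 for Zeocin in pot1b, 2.2 to 2.55 for pot1b against WT under Zeocin and 1.95 to 2.3 in the interaction, and IAMT1 from −1.33 to −0.88 in pot1b against WT under mock. Of 133 log2 changes of the other called SABATH genes, 128 stayed past the threshold and 5 did not, all with 1 library left out.

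The labels do not say that a replicate number marks a shared batch, so the main fit did not block on it. The main adjusted p-values thus take no account of variation shared by libraries of 1 number. Of 18 same-numbered pairs, 12 had a correlation of deviations from the group means over 0.1. These ran from 0.08 to 0.295 for number 1, −0.022 to 0.141 for number 2 and 0.29 to 0.416 for number 3. Of 12 libraries, 10 correlated best with one of their own number, a hint from the data that some numbers share a source of variation. With the replicate block, FAMT stood at 2.17 in the interaction, the other SABATH genes called numbered 2 for Zeocin in pot1b against 1 without it and 3 for pot1b against WT under mock against 2, both gained through AT5G37990 (adjusted p = 0.044 and 0.036). SAHH2 gained a call for Zeocin in WT, SAHH1 and SAM1 for Zeocin in pot1b, AOC1 and ICS1 in the interaction, and 379 genes of all were called in the interaction against 147. Without both libraries labelled pot1b and numbered 3, an alternative chosen after seeing the data, all genes called numbered 742 for Zeocin in pot1b, 1294 for pot1b against WT under Zeocin and 65 in the interaction. With 1 library left out, all genes called ran from 707 to 1498 for Zeocin in WT, 919 to 2033 for Zeocin in pot1b, 1595 to 3736 for pot1b against WT under mock, 1239 to 2304 under Zeocin, and 56 to 437 in the interaction. All 5 highest counts came without the first WT Zeocin library. The lowest came without the first WT mock library for Zeocin in WT and for pot1b against WT under mock, and without the first pot1b Zeocin library for the interaction and for the genotypes under Zeocin. The other SABATH genes called ran from 0 to 1 for Zeocin in WT, 1 to 2 for Zeocin in pot1b, 1 to 3 for pot1b against WT under mock and 0 to 1 in the interaction. The cause of these shifts was not tested. Counts of the lists around the members stayed within 1.5 times in 501 of 570 comparisons. These 501 include comparisons of 0 with 0 calls, which say little about stability. Depth limits JMT, BSMT1, GAMT1 and AT3G44870, each with at most 5 counts in a library.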
